A study of Rattus norvegicus with 6 samples.

Results

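The genes described here are the TRIM ubiquitin ligases of the rat outside the TIF1 group, measured in cultured neonatal rat ventricular cardiomyocytes, the muscle cells of the lower heart chambers of newborn rats. They were taken as every protein-coding entry whose symbol is Trim followed by a number, after Trim24, Trim28 and Trim33 were left out, which gave 52 of 34510 genes in the table. Poly(A) RNA was sequenced in 3 libraries titled Trim28 and 3 titled Bgal. Per the series' design text, cells received an adenovirus that expresses TRIM28; the labels do not expand the name Bgal or state what its cells received, and give no strain, dose, time or batch. Both groups are the same kind of cell. No label ties a library to its own culture or animal, and p-values here therefore cover just the spread among these libraries, which may be technical.

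TRIM proteins carry a tripartite motif of a RING finger, which recruits a ubiquitin-loaded E2 enzyme, then B-box zinc fingers and a coiled coil through which the proteins pair up. The region after the coiled coil differs between members and chooses the target: a PRY-SPRY domain in the largest group, NHL repeats, a filamin domain, or a COS box that binds microtubules. In striated muscle the MuRF proteins sit on the sarcomere and mark contractile proteins for the proteasome. Other members act in innate immunity, where they tag viral proteins or the sensors of viral RNA.

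Reads assigned to genes ranged from 26146166 to 28298731 in the Trim28 libraries and from 28574951 to 34593292 in the Bgal libraries. Trim28 itself stood at 2923, 2890 and 980.0 FPKM in Trim28 replicates 1, 2 and 3, against 77.6 to 87.8 FPKM in the Bgal libraries, so replicate 3 carried less of it. FPKM scales the reads of a gene by its length and by the library's total. Of the other relatives left out of the group, Trim24 was higher, at 18.2, 16.0 and 10.6 FPKM in the Trim28 libraries and 7.92 to 8.81 FPKM in the Bgal libraries (limma adjusted p = 0.0111). Trim33 stood at 9.66 ± 0.763 and 10.3 ± 0.326 FPKM in the Trim28 and Bgal libraries and did not pass (limma adjusted p = 0.389). Trim66, a relative of the TIF1 proteins with a bromodomain and no RING finger, stays among the 52 by the way the members were chosen.

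The label of the cells was compared with marker lists. All 10 cardiomyocyte markers were tested, with 4 higher and 3 lower, and their summed level was 26248 to 27813 FPKM in the Trim28 libraries and 21615 to 24041 FPKM in the Bgal libraries. The higher sum rested on Actc1, with means of 9018 and 5714 FPKM in the Trim28 and Bgal libraries, and on Nppa, with 6368 and 4335 FPKM. Tnni3, Pln and Tnnt2 were the 3 lower genes, so the markers did not move together and the sum does not measure cardiomyocyte content. Markers of other cells were present, and many were higher in the Trim28 libraries. Upward, 8 of 10 tested fibroblast genes, 8 of 10 smooth muscle and mural genes, 2 of 4 endothelial genes and 7 of 7 leukocyte genes passed the test. Downward, 0, 1, 1 and 0 passed. Among all tested genes 20.1% were higher and 21.1% lower. The leukocyte gene Adgre1 and the mural gene Kcnj8 reached the 0.5 FPKM of the filter in the Trim28 libraries alone. With a filter of 1 FPKM the 7 leukocyte genes became 5 and the 8 mural genes became 7. The summed level of the fibroblast markers was 1041 to 1105 FPKM in the Trim28 libraries and 669 to 720.1 FPKM in the Bgal libraries, and that of the mural markers 1645 to 1744 FPKM in the Trim28 libraries and 808 to 1058 FPKM in the Bgal libraries. The endothelial sum of 92.6 to 95.3 FPKM in the Trim28 libraries and 41.9 to 50.1 FPKM in the Bgal libraries was carried by Eng, which encodes endoglin, at 82.3 ± 1.33 and 33.0 ± 3.86 FPKM in the Trim28 and Bgal libraries. Without Eng the sum was 11.6 to 12.9 FPKM in the Trim28 libraries and 12.7 to 13.3 FPKM in the Bgal libraries, and the VEGF receptor gene Kdr was lower (6.06 ± 0.276 and 8.07 ± 0.642 FPKM in the Trim28 and Bgal libraries, limma adjusted p = 0.00934). Leukocyte markers summed to 66.4 to 68.6 FPKM in the Trim28 libraries and 27.9 to 28.2 FPKM in the Bgal libraries. Of 9 endothelial and 9 leukocyte markers, 5 and 2 were below the filter on low values; Cldn5 was listed at 0 in every library. In RNA from a whole culture, fewer cells of a type and less RNA per cell cannot be told apart, and the part of these markers in the results that follow was not tested.

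Levels ranged widely within the family, with Trim42 at 0 in every library and Trim54 reaching 205 FPKM, as the plot of all members by library shows. Trim54, Trim72, Trim55, Trim63 and Trim47 averaged above 50 FPKM in both groups. The next level was held by Trim35 at 43.0 ± 1.46 FPKM in the Trim28 libraries and 43.3 ± 0.617 FPKM in the Bgal libraries (SD, n = 3 each). Means of at least 10 FPKM were reached by 16 members in each group, and means of at least 1 FPKM by 31 members in the Trim28 libraries and 32 in the Bgal libraries. The members added up to 862, 888 and 880.1 FPKM in Trim28 replicates 1 to 3 and to 941, 961 and 879 FPKM in Bgal replicates 1 to 3. The muscle members Trim54, Trim55, Trim63, Trim72 and Trim32 made up 54.9%, 54.8% and 56.6% of that sum in the Trim28 libraries and 61.2%, 61.4% and 60.2% in the Bgal libraries. That share was lower in all 3 Trim28 libraries, without overlap. Both of its parts moved. The muscle members summed to 473 to 498 FPKM in the Trim28 libraries and 529 to 590 FPKM in the Bgal libraries. The other members summed to 382 to 402 FPKM in the Trim28 libraries and 350 to 371 FPKM in the Bgal libraries. The sum of those others averaged 391 and 362 FPKM in the Trim28 and Bgal libraries, and Trim47 alone averaged 125 and 82.4 FPKM. Trim47 thus differed by more than the whole sum did. Without Trim47 the sum of the others was lower, not higher, in the Trim28 libraries.

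**Figure D1:**
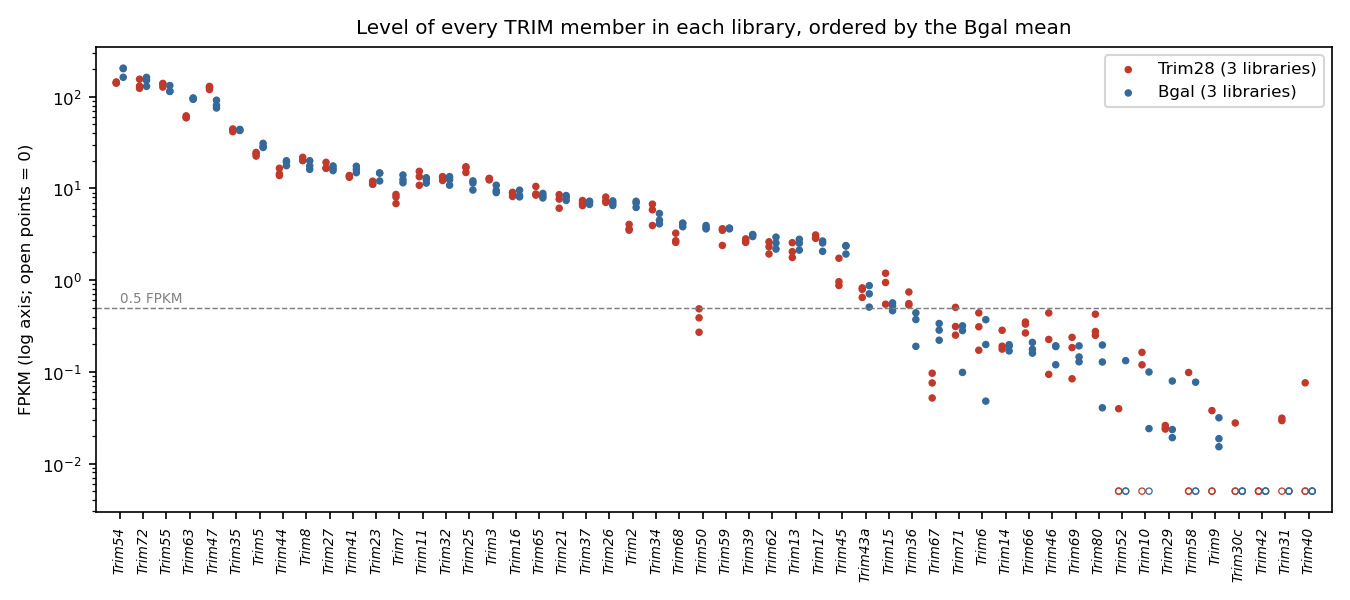
FPKM of each of the 52 TRIM members in every library on a log axis, with Trim28 libraries in red left of Bgal libraries in blue, ordered by the Bgal mean; open points at the bottom mark values of 0 and the dashed line is the 0.5 FPKM of the filter. The muscle genes Trim54, Trim72, Trim55 and Trim63 lead together with Trim47, and Trim50 lies above the line in the Bgal libraries and below it in the Trim28 libraries.

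Of the 52 members, 35 had at least 0.5 FPKM in at least 3 libraries and were tested. Of these 35, 32 reached that level in every library, Trim15 and Trim36 reached it in all 3 libraries of the Trim28 group alone, and Trim50 in all 3 of the Bgal group alone. In limma on log2(FPKM + 1), with p-values adjusted over all 14808 tested genes, 3 members were higher in the Trim28 libraries (Trim47, Trim25 and Trim3) and 10 were lower (Trim50, Trim2, Trim63, Trim7, Trim45, Trim54, Trim68, Trim44, Trim5 and Trim41). Among all tested genes 41.2% were called, 20.1% higher and 21.1% lower, so the 13 of 35 members called, or 37.1%, lie near the background. By direction, 8.57% of the tested members were higher and 28.6% lower, and this split was not tested against that of all genes. The members' median log2 change was -0.02, the same as the -0.02 of all tested genes. Changes were small: 1 member, Trim50, reached 1 log2 unit together with the threshold, as 2.81% of all tested genes did. The 13 called members did not overlap between the groups, and neither did 5 members that failed the test, which makes 18 of 35 beside 53.8% of all tested genes.

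**Figure D2:**
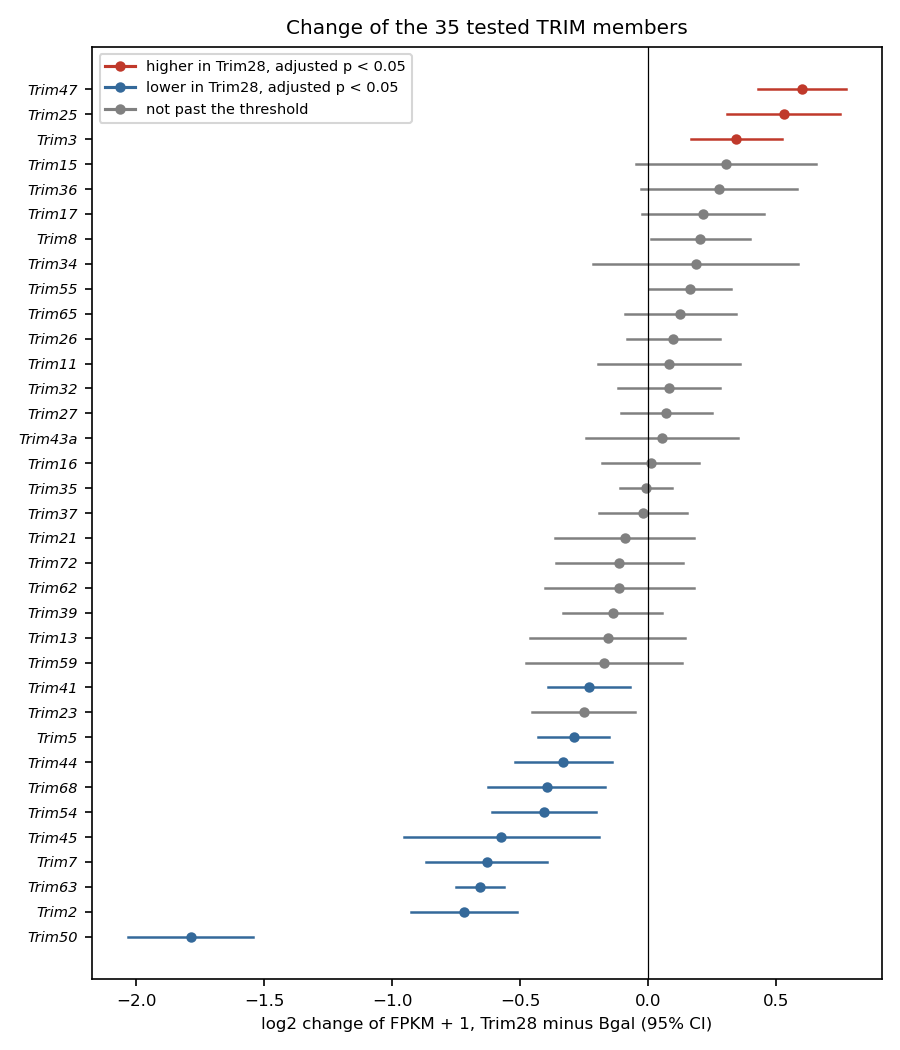
Log2 change of FPKM + 1, Trim28 minus Bgal, of the 35 tested members with 95% confidence intervals from limma; red marks members higher and blue members lower at an adjusted p under 0.05, grey the rest. Trim50 stands apart at -1.79, Trim2, Trim63, Trim7 and Trim45 lie between -0.72 and -0.57, and the 3 red members lie between 0.34 and 0.60.

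Within the muscle group, Trim63 and Trim54 fell, while Trim55, Trim72 and Trim32 did not pass. The share called was 40% of the 5 tested, near the 41.2% of all tested genes. Trim63 (ENSRNOG00000016543, chromosome 5, 152533349 to 152547179, plus strand) encodes MuRF1, the ubiquitin ligase that marks thick-filament proteins and troponin I during muscle wasting. Coordinates are those of the deposited table, on a build not given in the sources used here. Trim63 stood at 59.1, 61.8 and 58.9 FPKM in the Trim28 libraries, against 96.8, 95.3 and 93.5 FPKM in the Bgal libraries. The 2 groups were tight and far apart: the highest Trim28 library lay well below the lowest Bgal library. The means of 60.0 ± 1.57 and 95.2 ± 1.64 FPKM in Trim28 and Bgal (SD, n = 3 each) differed by -0.66 (SE 0.04) on the log2(FPKM + 1) scale, with 7.3e-05 as the adjusted p in limma.

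Trim54 (ENSRNOG00000006146, chromosome 6, 26603369 to 26624092, minus strand) encodes MuRF3, which binds and stabilises microtubules in muscle. It stood at 141, 141 and 145 FPKM in the Trim28 libraries and at 202, 205 and 163 FPKM in the Bgal libraries. Bgal replicate 3 was nearest to the Trim28 libraries but did not overlap them. The log2 change was -0.41 (95% confidence interval -0.61 to -0.20, limma adjusted p = 0.0083).

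Trim55 (ENSRNOG00000012723, chromosome 2, 104416972 to 104459107) encodes MuRF2, which links the titin kinase region of the sarcomere to transcription. Its values were 137, 139.5 and 127 FPKM in the Trim28 libraries and 114, 114 and 132 FPKM in the Bgal libraries, and Bgal replicate 3 lay within the range of the Trim28 libraries. The log2 difference of 0.16 did not pass (limma adjusted p = 0.0944), though it did without Bgal replicate 3 (adjusted p = 0.0158) and in limma-voom on reads recovered from FPKM (adjusted p = 0.0475). The 3 MuRF genes thus did not keep 1 proportion to each other. The ratio of Trim63 to Trim55 in FPKM was 0.433, 0.443 and 0.463 in the Trim28 libraries, against 0.847, 0.835 and 0.708 in the Bgal libraries. The ratio of Trim54 to Trim55 was 1.03, 1.01 and 1.14 in the Trim28 libraries and 1.77, 1.79 and 1.23 in the Bgal libraries. In both ratios every Trim28 library lay below every Bgal library.

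Trim72 (ENSRNOG00000022099, chromosome 1, 199449973 to 199457895) encodes MG53, which gathers vesicles at tears of the muscle cell membrane. It stood at 123, 131 and 155 FPKM in the Trim28 libraries and at 150.4, 162 and 129.6 FPKM in the Bgal libraries. The groups overlapped widely (log2 difference -0.11, 95% confidence interval -0.36 to 0.14, limma adjusted p = 0.43). Trim32, an NHL-repeat ligase whose human gene is mutated in a limb-girdle muscular dystrophy, stood at 13.2, 13.4 and 12.2 FPKM in the Trim28 libraries and at 12.4, 13.4 and 10.8 FPKM in the Bgal libraries, also overlapping (log2 difference 0.08, limma adjusted p = 0.488). Trim32 lies within Astn2 on the opposite strand. With a strand setting not given in the sources used here, reads of these genes may not be fully separated.

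**Figure D3:**
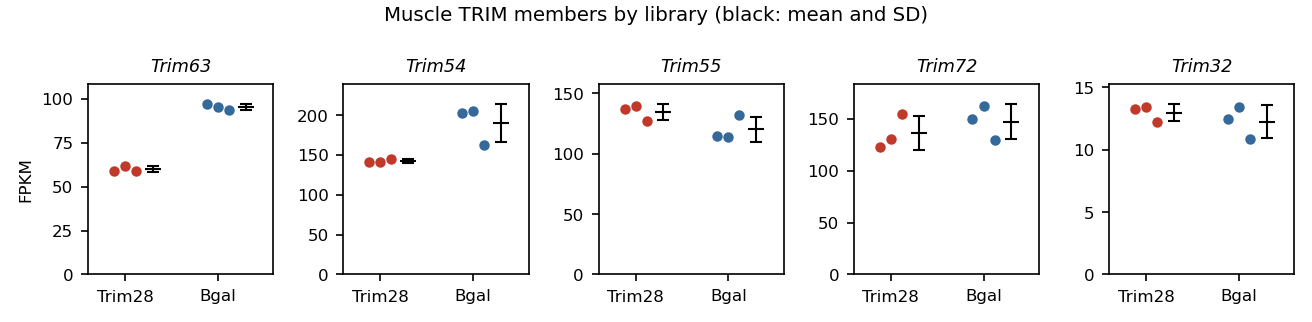
FPKM of the 5 muscle TRIM members in each library, Trim28 (red) left of Bgal (blue), with the mean and SD of 3 libraries in black and axes from 0. Trim63 and Trim54 are lower in all 3 Trim28 libraries, at 58.9 to 61.8 and 141 to 145 FPKM, while Trim55, Trim72 and Trim32 overlap.

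The stretches just before the RefSeq starts of Trim63 and Trim54 are shown because these are the muscle members that fell, and because FoxO forkhead factors are known to drive Trim63 in wasting muscle. The windows hold 250 bases before the start, 5′ to 3′ on the gene's strand, from RefSeq on build GRCr8, at chr5:151816986-151817235 (plus strand) for Trim63 and chr6:30978476-30978725 (minus strand) for Trim54. Capitals mark the forkhead letters GTAAACA, searched on both strands.
Trim63: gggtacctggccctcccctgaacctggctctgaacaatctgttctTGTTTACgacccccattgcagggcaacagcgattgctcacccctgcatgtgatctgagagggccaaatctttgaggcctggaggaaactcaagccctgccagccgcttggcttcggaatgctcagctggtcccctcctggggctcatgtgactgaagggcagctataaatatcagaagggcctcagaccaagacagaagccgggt
Trim54: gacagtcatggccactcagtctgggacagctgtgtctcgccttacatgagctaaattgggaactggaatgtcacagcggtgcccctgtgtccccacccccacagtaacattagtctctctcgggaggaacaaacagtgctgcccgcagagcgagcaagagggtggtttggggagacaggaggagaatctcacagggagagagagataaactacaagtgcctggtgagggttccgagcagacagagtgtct
The Trim63 window held 1 match, on the opposite strand, at positions -205 to -199 from the start, and the Trim54 window held none. Of 33469 RefSeq promoter windows of the same length, 3.21% held these letters. Of the 42 members with a RefSeq window, Trim63 and Trim11 did. A match is a run of letters and not a measured site.

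Other muscle ubiquitin ligases and the atrophy pathway were read from lists chosen for these cells. Of 17 tested muscle ligase genes, 1 was higher and 6 were lower, with a median log2 change of -0.08; the share called was the 41.2% of all tested genes. Without Trim28 replicate 1 the 6 became 3. Fbxo32, the atrophy ligase also called atrogin-1, fell to 28.6, 30.0 and 26.0 FPKM in the Trim28 libraries, against 62.5, 60.1 and 62.9 FPKM in the Bgal libraries, which is a 2.19-fold difference of the means (limma adjusted p = 4.95e-05). Klhl41, a Kelch adaptor of sarcomere proteins, was the member that rose, with 60.5 to 61.9 FPKM in the Trim28 libraries and 29.9 to 32.1 FPKM in the Bgal libraries. Fbxo30 and Mdm2 fell, both 1.23-fold. Values of Fbxo32 and Klhl41 did not overlap between the groups.

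Of 15 tested genes of FoxO and atrophy control, 2 were higher and 6 lower, with a median log2 change of -0.04 and 53.3% called, beside 41.2% of all tested genes. Bnip3, a mitophagy receptor, averaged 30.2 ± 2.68 FPKM in the Trim28 libraries and 55.2 ± 5.84 FPKM in the Bgal libraries, and Pik3ip1, an inhibitor of PI3 kinase, 14.2 ± 2.21 and 25.4 ± 2.06 FPKM in the Trim28 and Bgal libraries. Map1lc3b, an autophagosome protein, was 1.22-fold lower. Smad3, which carries TGF-beta signals, was 1.38-fold higher. Foxo1 stood at 6.23 ± 0.725 and 6.23 ± 0.623 FPKM in the Trim28 and Bgal libraries and Foxo3 at 14.7 ± 0.76 and 13.7 ± 1.504 FPKM in the Trim28 and Bgal libraries, and neither passed (limma adjusted p = 0.986 and 0.379). Foxo1 and Foxo3 were named after their values were seen.

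Known partners and substrates of the muscle members moved in both directions, with 6 of 18 tested higher and 6 lower, or 66.7% called beside 41.2% of all tested genes. Tnni3, cardiac troponin I and a substrate of MuRF1, was at 788 ± 51.8 FPKM in the Trim28 libraries and 1299 ± 76.0 FPKM in the Bgal libraries. Myl2, the ventricular regulatory light chain, was 2.78-fold lower and Ckm, muscle creatine kinase, 1.83-fold lower. Myh7, the slow myosin heavy chain, was 2.20-fold higher, at 725 to 776 FPKM in the Trim28 libraries and 288 to 400.3 FPKM in the Bgal libraries.

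Of the antiviral members, 10 were in the table and 7 were tested; 1 rose, Trim25, and 1 fell, Trim5, which is 28.6% beside 41.2% of all tested genes. Trim25 (ENSRNOG00000002341, chromosome 10, 76343847 to 76362145, plus strand) encodes a ligase that adds ubiquitin chains to the RNA sensor RIG-I. It stood at 16.8, 17.2 and 14.9 FPKM in the Trim28 libraries, against 11.4, 9.60 and 12.1 FPKM in the Bgal libraries. Trim28 replicate 3, with the least Trim28, was nearest to the Bgal libraries but above all of them. On the log2 scale Trim25 was higher by 0.53 (SE 0.09, limma adjusted p = 0.00401).

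Trim5 (ENSRNOG00000017191, chromosome 1, 169446805 to 169534896, minus strand) is the rat entry of the gene known in primates for blocking retroviral capsids. Its values of 24.6, 23.8 and 22.5 FPKM in the Trim28 libraries all lay below the 31.0, 27.9 and 28.7 FPKM of the Bgal libraries. The log2 change was -0.29 (95% confidence interval -0.43 to -0.16, limma adjusted p = 0.00652). Trim5 overlaps Trim30c on the same strand and lies in a cluster with its relatives Trim34 and Trim6; how reads that match more than 1 of these genes were counted is unknown, so its level is uncertain. Trim30c itself had 2 reads in Trim28 replicate 2 and 0 elsewhere.

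Trim23, which joins a RING finger to a GTPase domain, came close to the threshold. It stood at 11.99, 11.1 and 11.1 FPKM in the Trim28 libraries and 14.7, 12.1 and 14.7 FPKM in the Bgal libraries. The values did not overlap, but Bgal replicate 2 lay at the edge (log2 difference -0.25, limma adjusted p = 0.0507). The test passed without Bgal replicate 2 (adjusted p = 0.00971) and at 3 other settings, within a range of 0.00971 to 0.152 over the alternatives.

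The remaining antiviral members overlapped between groups. Trim21, the receptor for antibodies inside cells, stood at 7.65, 8.55 and 6.07 FPKM in the Trim28 libraries and 8.35, 7.40 and 8.03 FPKM in the Bgal libraries (limma adjusted p = 0.555). Trim26, a regulator of interferon induction, stood at 7.32, 7.04 and 8.04 FPKM in the Trim28 libraries and 6.91, 6.51 and 7.31 FPKM in the Bgal libraries (limma adjusted p = 0.348). Trim65, which modifies the RNA sensor MDA5, had 8.68, 8.45 and 10.5 FPKM in the Trim28 libraries and 8.33, 8.82 and 7.87 FPKM in the Bgal libraries (limma adjusted p = 0.316). These 3 genes were expressed at similar moderate levels, and their 95% confidence intervals of the log2 difference lay between -0.36 and 0.34. Trim34 was more variable, at 6.73, 5.84 and 3.94 FPKM in the Trim28 libraries and 5.33, 4.11 and 4.50 FPKM in the Bgal libraries (limma adjusted p = 0.422). Trim28 replicate 3 was the lowest of all 6 libraries for Trim34, and also for Trim21. Trim14, an adaptor without a RING finger that works with the mitochondrial protein MAVS, and Trim6 stayed below the filter, at 0.177 to 0.284 and 0.172 to 0.439 FPKM in the Trim28 libraries and 0.169 to 0.197 and 0.0479 to 0.370 FPKM in the Bgal libraries.

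**Figure D4:**
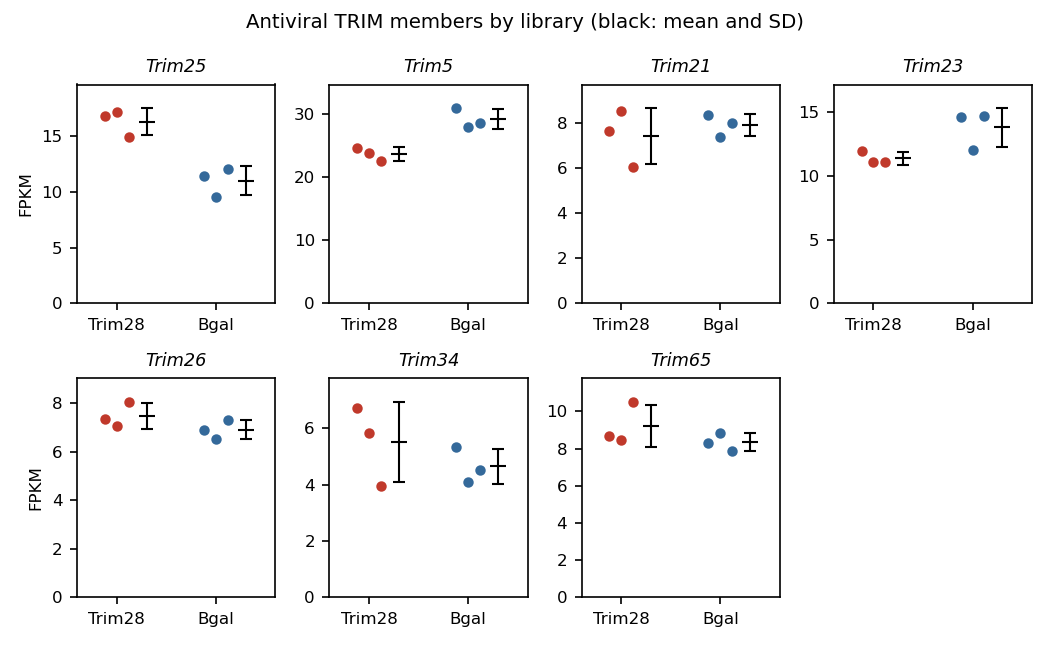
FPKM of the 7 tested antiviral TRIM members in each library, Trim28 (red) left of Bgal (blue), with the mean and SD of 3 libraries in black and axes from 0. Trim25 is higher in all 3 Trim28 libraries, Trim5 is lower in all 3, and Trim23 is lower by a narrow gap without passing the test.

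The promoter windows of Trim25, Trim21 and Trim26 are shown because Trim25 was the antiviral member that rose and the other 2 hold the letters of the interferon-stimulated response element. They come from RefSeq on build GRCr8, with 250 bases before the start, 5′ to 3′ on the gene's strand, at chr10:74309774-74310023 (plus strand), chr1:166399372-166399621 (minus strand) and chr20:1736312-1736561 (minus strand). Capitals mark the response element letters, which are GAAA, any 2 bases and GAAA again, on either strand.
Trim25: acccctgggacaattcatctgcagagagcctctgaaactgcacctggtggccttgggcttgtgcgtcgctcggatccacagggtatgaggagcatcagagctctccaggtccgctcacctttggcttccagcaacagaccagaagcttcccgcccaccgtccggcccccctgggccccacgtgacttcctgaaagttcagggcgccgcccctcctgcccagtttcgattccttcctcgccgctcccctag
Trim21: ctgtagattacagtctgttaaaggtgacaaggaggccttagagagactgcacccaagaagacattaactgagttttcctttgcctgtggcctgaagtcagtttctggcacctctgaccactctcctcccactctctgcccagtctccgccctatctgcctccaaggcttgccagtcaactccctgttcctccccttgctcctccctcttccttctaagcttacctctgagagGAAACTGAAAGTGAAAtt
Trim26: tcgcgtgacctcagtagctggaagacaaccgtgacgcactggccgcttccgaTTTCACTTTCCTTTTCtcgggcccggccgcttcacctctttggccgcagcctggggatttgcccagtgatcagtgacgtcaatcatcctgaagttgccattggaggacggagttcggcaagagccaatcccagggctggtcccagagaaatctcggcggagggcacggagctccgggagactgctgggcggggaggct
Trim21 held 2 overlapping matches, at positions -18 to -9 and -12 to -3 from the start, and Trim26 held 2 on the opposite strand, at -198 to -189 and -192 to -183. The Trim25 window held none. The share of all 33469 windows with a match was 3.41%, and of the 42 members with a window 3 had one, the last being Trim40. No match says only that these letters are not in this window. The windows were also searched for TTCNNNGAA, the letters of the interferon-gamma activated site, which 7.67% of all windows and, among members, Trim23 and Trim31 held. The E-box letters CANNTG stood in 23 of the 42 member windows and in 65.5% of all windows.

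Genes of the RIG-I, STING and interferon pathway were higher in part, with 12 of 22 tested higher and 2 lower and a median log2 change of 0.41, beside 20.1% higher, 21.1% lower and a median of -0.02 among all tested genes. Without Trim28 replicate 1 the 12 became 7, and the 2 became 1 without any 1 library other than Trim28 replicate 3. Ifih1, which encodes MDA5, stood at 9.58, 10.7 and 8.10 FPKM in the Trim28 libraries and 5.22, 4.98 and 6.41 FPKM in the Bgal libraries. Traf3, a ligase downstream of the sensors, was 1.40-fold higher, and the interferon regulatory factor gene Irf5 2.17-fold higher. Mavs, the mitochondrial adaptor of RIG-I, fell to 10.2, 10.4 and 9.44 FPKM in the Trim28 libraries, against 17.6, 17.1 and 16.4 FPKM in the Bgal libraries (limma adjusted p = 0.000204). Ddx58, which encodes RIG-I, the partner of Trim25, was chosen with its values known, and had 19.5, 20.2 and 12.4 FPKM in the Trim28 libraries and 11.6, 7.45 and 10.3 FPKM in the Bgal libraries (limma adjusted p = 0.0231). Its call was lost without Trim28 replicate 1 (0.0723) or 2 (0.0735), without Bgal replicate 2 (0.0647) and without a filter (0.0581), within a range of 0.0054 to 0.0735 over the alternatives. As with Trim25, Trim28 replicate 3 lay nearest to the Bgal libraries. Markers of leukocytes (7 of 7 tested, 5 with a filter of 1 FPKM), of fibroblasts (8 of 10) and of mural cells (8 of 10, with 1 lower) were also higher in the Trim28 libraries. Their part in these values was not tested.

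Outside the muscle and antiviral groups, 37 members remained, of which 23 were tested, 2 rose and 7 fell. The share called was 39.1%, near the 41.2% of all tested genes, and without Trim28 replicate 1 the 7 became 4. Among the members called higher, the largest change on the log2(FPKM + 1) scale was that of Trim47 (ENSRNOG00000008215, chromosome 10, 104654717 to 104659188, minus strand), a ligase first found in brain tumours. It stood at 126, 129 and 119.5 FPKM in the Trim28 libraries, against 80.5, 91.5 and 75.3 FPKM in the Bgal libraries. All Trim28 libraries lay above all Bgal libraries, with a log2 change of 0.60 (SE 0.07, limma adjusted p = 0.000834). Its neighbour Trim65 on the same strand, described with the antiviral members, did not pass, and the ratio of Trim47 to Trim65 was 14.5, 15.3 and 11.4 in the Trim28 libraries and 9.66, 10.4 and 9.56 in the Bgal libraries.

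The largest fall among the tested members was that of Trim50 (ENSRNOG00000022483, chromosome 12, 24348321 to 24365324, minus strand), a PRY-SPRY ligase known from the acid-secreting cells of the stomach. It stood at 0.486, 0.388 and 0.270 FPKM in the Trim28 libraries, against 3.94, 3.62 and 3.72 FPKM in the Bgal libraries. These values rest on 28, 21 and 16 reads in the Trim28 libraries and on 289, 217 and 264 reads in the Bgal libraries. The mean was 9.86-fold lower in the Trim28 libraries and the groups were far apart, and differed by -1.79 on the log2(FPKM + 1) scale (SE 0.10, limma adjusted p = 6.32e-05). In limma-voom on recovered reads, where no FPKM is added, the log2 change was -3.31. Trim50 passed the filter through the Bgal libraries alone.

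Among NHL-repeat members, Trim2 fell and Trim3 rose. Trim2 (chromosome 2, 183145089 to 183213228), a ligase of neurofilament light chain in neurons, stood at 3.50, 3.61 and 4.05 FPKM in the Trim28 libraries and 6.93, 6.20 and 7.24 FPKM in the Bgal libraries (log2 change -0.72, limma adjusted p = 0.000811). Trim3 (chromosome 1, 170441639 to 170464341), its close relative best known from brain, stood at 12.9, 12.4 and 12.7 FPKM in the Trim28 libraries and 9.51, 10.8 and 9.004 FPKM in the Bgal libraries (log2 change 0.34, limma adjusted p = 0.00941). Neither gene overlapped between the groups. Trim32 of the same class is given with the muscle members, and Trim71, a ligase of stem cells, stayed below the filter with 18 to 34 reads in the Trim28 libraries and 9 to 28 in the Bgal libraries.

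Trim7 and Trim41 are neighbours on chromosome 10 (34155515 to 34199279 together) and on opposite strands, and both were lower. Trim7, also called GNIP, binds glycogenin, the protein that primes glycogen. It stood at 6.83, 8.06 and 8.59 FPKM in the Trim28 libraries and 11.5, 14.0 and 12.5 FPKM in the Bgal libraries (log2 change -0.63, limma adjusted p = 0.00252). Trim41, which carries a PRY-SPRY domain, stood at 13.2, 13.8 and 13.6 FPKM in the Trim28 libraries and 17.4, 16.1 and 14.8 FPKM in the Bgal libraries (log2 change -0.23, limma adjusted p = 0.0293). The groups did not overlap for either gene. The call of Trim41 was lost without any 1 of 5 libraries, Bgal replicate 3 being the exception, within a range of adjusted p of 0.0163 to 0.0949 over the alternatives.

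Trim45, a ligase with a filamin domain, stood at 0.960, 0.873 and 1.73 FPKM in the Trim28 libraries and 2.38, 2.35 and 1.92 FPKM in the Bgal libraries. Trim28 replicate 3 was nearly level with Bgal replicate 3, and the log2 change of -0.57 passed narrowly (limma adjusted p = 0.0259). The call was lost in 6 of 16 alternatives, among them without Trim28 replicate 1 (0.0789) or 2 (0.0774), without Bgal replicate 1 (0.0803) or 2 (0.0748) and without a filter (0.061), within a range of 0.00482 to 0.0803 over the alternatives. Trim68, a PRY-SPRY member known as a coactivator of the androgen receptor, stood at 2.58, 3.25 and 2.69 FPKM in the Trim28 libraries and 3.82, 4.19 and 4.11 FPKM in the Bgal libraries (log2 change -0.40, limma adjusted p = 0.015, but 0.0515 without Trim28 replicate 1). Trim44, which has no RING finger and carries a zinc finger like that of ubiquitin proteases, stood at 14.4, 16.6 and 13.8 FPKM in the Trim28 libraries and 17.7, 20.02 and 19.4 FPKM in the Bgal libraries (log2 change -0.33, limma adjusted p = 0.0143). For Trim68 and Trim44 all 3 Trim28 libraries lay below all Bgal libraries.

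**Figure D5:**
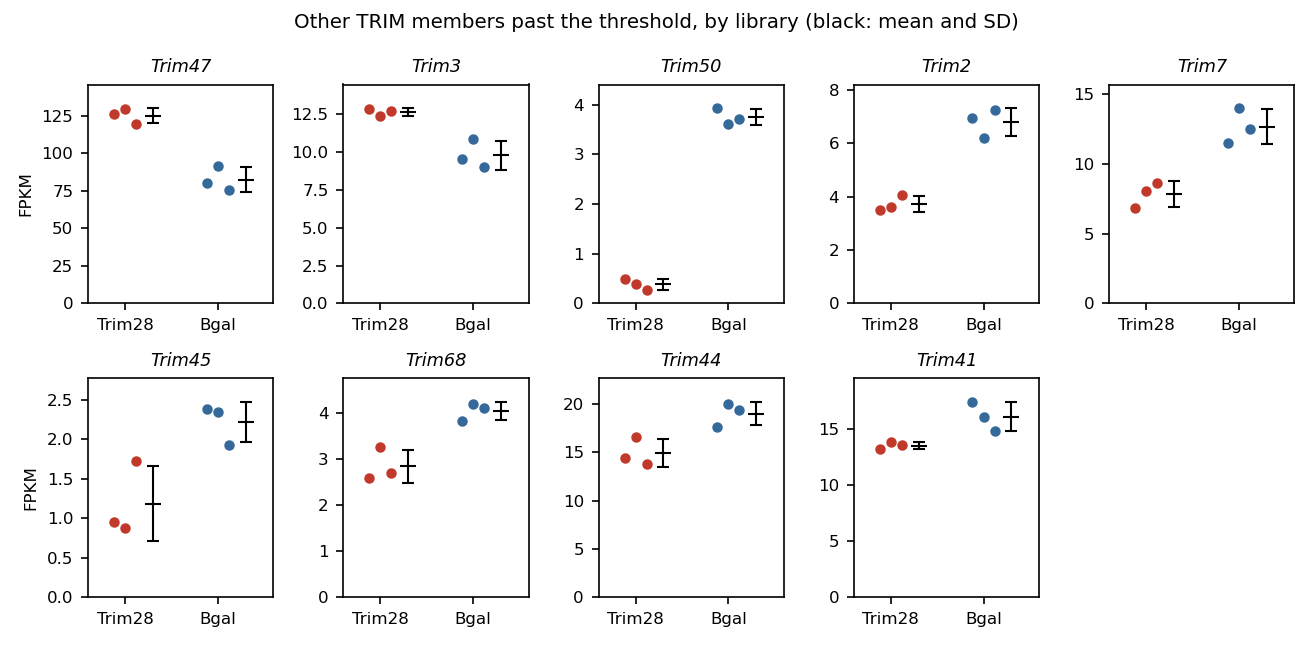
FPKM of the 9 TRIM members past the threshold outside the muscle and antiviral groups, in each library, Trim28 (red) left of Bgal (blue), with the mean and SD of 3 libraries in black and axes from 0. Trim47 and Trim3 are higher in the Trim28 libraries, the other 7 are lower, and Trim45 has 1 Trim28 library at 1.73 FPKM close to the lowest Bgal library at 1.92 FPKM.

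Because Trim28 replicate 3 carried less Trim28, its place among the Trim28 libraries was counted. It was the nearest of the 3 to the Bgal mean for 6 of the 13 called members, or 46.2%, and for 44.1% of all 6097 called genes. Replicates 1 and 2 were the nearest for 2 and 5 of the 13 members. The share among the members was close to that of all called genes.

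Of the remaining 14 tested members, Trim8, Trim17, Trim36 and Trim39 did not overlap between the groups but did not pass. Trim8, a regulator of cytokine signalling, stood at 20.1, 21.8 and 20.2 FPKM in the Trim28 libraries and 17.6, 20.03 and 16.1 FPKM in the Bgal libraries (log2 difference 0.20, limma adjusted p = 0.085), and it passed without Bgal replicate 2 (0.021). Trim17, known for a part in the death of neurons, averaged 2.95 ± 0.133 and 2.42 ± 0.321 FPKM in the Trim28 and Bgal libraries, and Trim36, a COS-box member, 0.610 ± 0.114 and 0.334 ± 0.129 FPKM. Trim39, a regulator of the cell cycle, averaged 2.70 ± 0.120 FPKM in the Trim28 libraries and 3.08 ± 0.0822 FPKM in the Bgal libraries.

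The other 10 overlapped. Trim35 was among the most even of them, with a 95% confidence interval of the log2 difference of -0.11 to 0.09. Trim37, a centrosome ligase mutated in a human growth disorder, averaged 6.90 ± 0.448 and 7.02 ± 0.294 FPKM in the Trim28 and Bgal libraries (interval -0.19 to 0.15), though it overlaps Ppm1e on the opposite strand. Trim16, which has no RING finger, averaged 8.71 ± 0.473 and 8.66 ± 0.791 FPKM in the Trim28 and Bgal libraries (interval -0.18 to 0.20). Trim27, a nuclear ligase first found fused to the RET kinase, averaged 17.5 ± 1.53 FPKM in the Trim28 libraries and 16.6 ± 0.961 FPKM in the Bgal libraries, and Trim11 13.2 ± 2.27 and 12.3 ± 0.827 FPKM in the Trim28 and Bgal libraries. Trim13 and Trim59, the members with a transmembrane segment, averaged 2.12 ± 0.403 and 3.17 ± 0.68 FPKM in the Trim28 libraries and 2.48 ± 0.334 and 3.66 ± 0.0353 FPKM in the Bgal libraries. Trim62 averaged 2.28 ± 0.345 and 2.55 ± 0.381 FPKM in Trim28 and Bgal, Trim15 0.892 ± 0.324 and 0.518 ± 0.0509 FPKM, and Trim43a 0.754 ± 0.0941 and 0.696 ± 0.182 FPKM. Their adjusted p-values in limma lay between 0.147 for Trim15 and 0.943 for Trim16.

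By structure, 19 members of the PRY-SPRY list used here were tested, with 1 higher and 5 lower and a median log2 change of -0.01. Of these 31.6% were called, beside 41.2% of all tested genes. Trim47, which was called higher, and Trim36 and Trim43a were not on that list. The counts thus hold for the list and not for every member with such a domain. Without Trim28 replicate 1 the counts were 2 higher and 3 lower. The other classes hold too few members for a share. Of 4 tested COS-box members, 2 were lower and 0 higher, though limma-voom on recovered reads gave 2 higher. The 2 lower ones are Trim54 and Trim63, already counted with the muscle members. Of 3 tested NHL-repeat members, 1 was higher and 1 lower, and of the 2 tested members without a RING finger, Trim16 and Trim44, 1 was lower. Several members lie in clusters. In the cluster on chromosome 20 (2146257 to 2514546), which in rat adjoins genes of antigen presentation, Trim15, Trim26 and Trim39 were tested and none passed.

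Below the filter were 17 members, which were not tested in the main comparison. Trim42 had 0 reads in all libraries. Trim31, Trim30c, Trim40, Trim52 and Trim58 had at most 8 reads over the 6 libraries together, and Trim9, Trim29 and Trim10 at most 28. Trim14, Trim69, Trim46, Trim6, Trim71, Trim80, Trim66 and Trim67 had more, up to 191 over the 6 libraries for Trim66. Trim67, a COS-box member known from neurons, stood at 0.0519, 0.0965 and 0.0756 FPKM in the Trim28 libraries and 0.285, 0.336 and 0.221 FPKM in the Bgal libraries, from 4, 7 and 6 reads and from 28, 27 and 21 reads. Its ranges were apart, and without a filter it passed (log2 change -0.25, limma adjusted p = 0.0147). Trim66 stood at 0.349, 0.265 and 0.331 FPKM in the Trim28 libraries and 0.176, 0.160 and 0.209 FPKM in the Bgal libraries, and Trim80 at 0.250, 0.425 and 0.275 FPKM in the Trim28 libraries and 0.196, 0.128 and 0.0405 FPKM in the Bgal libraries. Both were apart between the groups but did not pass without a filter (limma adjusted p = 0.0731 for Trim66 and 0.0836 for Trim80).

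Relatives with a tripartite motif or close likeness under other names were read alongside. Mid1, a microtubule-bound ligase, rose, with 5.18, 5.49 and 5.93 FPKM in the Trim28 libraries and 4.07, 3.66 and 4.23 FPKM in the Bgal libraries (limma adjusted p = 0.00968). Rnf207, a cardiac ligase linked to potassium channels, fell 1.13-fold (limma adjusted p = 0.0471), a call lost in 10 of 16 alternatives, all single-library omissions but that of Bgal replicate 2 among them (range 0.0269 to 0.138). Pml, the scaffold of nuclear bodies, and Mid2 did not pass, at 22.6 ± 0.89 and 6.45 ± 0.0353 FPKM in the Trim28 libraries and 20.1 ± 1.13 and 6.44 ± 0.376 FPKM in the Bgal libraries (limma adjusted p = 0.0598 and 0.976). Pml passed with TMM scaling, median-ratio scaling and limma-voom (0.0336, 0.0445 and 0.0365).

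Genes of E2 enzymes and of the E1 enzymes Uba1, Uba6 and Uba7, which supply ubiquitin or a like modifier to ligases, changed in both directions, with 6 of 18 tested higher and 5 lower (61.1% called, beside 41.2% of all tested genes). The 6 became 3 without Trim28 replicate 1 or 2 or Bgal replicate 1 and 2 without Bgal replicate 3, and the 5 became 8 without Bgal replicate 2. Ube2d2, an E2 that works with many RING ligases, averaged 99.9 ± 5.89 FPKM in the Trim28 libraries and 132 ± 6.33 FPKM in the Bgal libraries. Ube2v2, a cofactor for chains linked through lysine 63, was 1.43-fold lower. Ube2g1, an E2 enzyme, was 1.32-fold higher, and Uba7, which activates the interferon-induced modifier ISG15, was 2.25-fold higher, at 2.30 to 3.39 FPKM in the Trim28 libraries and 1.17 to 1.48 FPKM in the Bgal libraries.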

How the data were processed

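The authors deposited 1 table of FPKM values per the file headers, with 1 column per library and gene coordinates, lengths and classes beside them. HISAT2 2.0.5 and DESeq2 are named, with no role, per the submitters' processing notes; for counting tool, strand setting, build and annotation, nothing is given in the sources used here. Poly(A) libraries were made with dUTP strand marking, per the labels' protocols. FPKM divides by length and library total, so 1 abundant transcript lowers the rest.

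Reads were recovered by dividing FPKM times length by each library's smallest step, which left 100% of values above 0 whole to within 0.01; 1 read on a kilobase was worth 0.0281 to 0.0381 FPKM. The 14808 genes that reached 0.5 FPKM in 3 or more libraries were compared on log2(FPKM + 1) by limma 3.58.1 (R 4.3.3; intensity trend), two-sided, Benjamini-Hochberg adjustment over all of them and a threshold of 0.05. The fold change on that scale understates low genes; other folds compare mean FPKM. The fit was also run on simulated reads, with 200 changed genes and independent libraries. Here 6097 genes were called and the origin of the libraries is unknown, so that run cannot vouch for the calls.

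Members and lists were chosen with earlier results of these data known. Every member is named; values per library are given for muscle members, tested antiviral members and called members, and for list genes the 4 smallest p-values among those called. Members close to that rule but outside it were added after their values were seen. Promoter windows of 250 bases came from RefSeq, build GRCr8, matched by symbol for 42 of 52 members.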

Additional observations from a re-analysis of the deposited data

How the results depend on the processing

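The counts of calls and the log2 changes of the 35 tested members and of 33 named list genes were recomputed with pseudocounts of 0.1 and 0.5, no filter, a filter of 1 FPKM, limma-voom on recovered reads, 3 other scalings (TMM, median ratio, Trim28 taken out of the total), no intensity trend, the replicate block, and without each library in turn. Trim15, Trim36 and Trim43a have no value with the filter of 1 FPKM. Recomputing the list counts was added after seeing the data. The 10 lower members ranged from 7 to 10 without 1 library and from 9 to 11 otherwise. The 3 higher members ranged from 3 to 4, except for 6 in limma-voom, which added Trim55, Trim8 and Trim36; the cause was not tested. No called member changed direction in these alternatives. Of the 13 called members 10 kept their call in every alternative; the exceptions were Trim41, Trim45 and Trim68, of which Trim41 (0.0521) and Trim45 (0.0536) also lost it with the replicate block. Of the 22 members that did not pass, 17 stayed so in every alternative, the exceptions being Trim23, Trim55, Trim8, Trim36 and Trim15. Of the 33 list genes 29 kept their side of the threshold in every alternative, the exceptions being Rnf207, Pml, Uba1 and Ddx58. The scalings moved the median log2 change of all genes to between -0.01 and 0.0018. Same-numbered libraries did not deviate together (correlations -0.0164, 0.134 and 0.00915 for numbers 1, 2 and 3), so the numbers were not taken as pairs; with the replicate block 4 members were higher and 9 lower, against 3 and 10. Members under the filter rest on few reads, and a difference among them may not be detectable at this depth.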
